A study of Mus musculus with 12 samples.

Results

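This account concerns the interaction of genotype and renal ischemia, that is, whether the transcript response of the mouse kidney to ischemia and reperfusion differed between mice with and without Toll-like receptor 4 (TLR4). It uses 12 of 12 arrays, all that the labels put in 4 groups of 3 kidneys each, and the quantity throughout is a difference of differences on the log2 scale: the ischemic minus sham difference in TLR4 null mice minus the same difference in B10 mice. A positive interaction means that TLR4 null kidneys moved further up, or less far down, than B10 kidneys. The B10 groups were C57BL/10 mice, labelled wild type. The TLR4 null groups were C57BL/10ScNJ, a substrain whose Tlr4 gene is missing. All mice were males of 8 weeks, bought in, and all had lost the right kidney at surgery. In the ischemic groups the left renal pedicle was clipped for 23 min and the kidney was taken at 4 h of reperfusion. In the sham groups the clip lay under the pedicle without closing it, and the kidney was taken at the same time. Since the 2 genotypes are 2 purchased substrains and not littermates, loss of Tlr4 and any other difference between the substrains cannot be told apart.

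TLR4 sits at the cell surface with its partner MD-2, takes up lipopolysaccharide with the help of CD14 and LBP, and has been proposed to sense molecules released by damaged cells. It signals through MyD88, which leads to NF-kB and to inflammatory cytokines and chemokines, and through TRIF, which leads to interferon-stimulated genes. In the kidney it is found on tubular epithelium, endothelium and leukocytes. A gene whose induction after ischemia depended on this receptor would have a negative interaction here.

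Replicates are labelled as biological, so p-values measure the spread among 3 kidneys a group. All arrays had been scaled to the same trimmed mean signal, and median signals ran from 61.2 to 77.4. Log2 values of arrays of one group correlated across probe sets at 0.961 to 0.974. The Tlr4 probe set used for the gene read 72.9 to 134.8 on the 6 B10 arrays and 6.33 to 60.4 on the 6 TLR4 null arrays, with no overlap. Whether that probe set lies in the missing part of the gene was not tested. Kidney markers were high on every array: the mean log2 level of 18 proximal tubule transporters ran from 11.49 to 11.99. The 3′ control probe set for 18S ribosomal RNA read 2287, 2646 and 1410 on the 3 TLR4 null ischemic arrays and 304 to 574 on the other arrays. That control stands apart in 1 of the 4 groups, so it has an interaction of its own, and its part in the results that follow was not tested.

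No gene of 14322 tested passed for the interaction (limma, smallest adjusted p = 0.244, 0% called). At an unadjusted p under 0.05 there were 913 genes, 6.37% of those tested, 452 of them positive and 461 negative. With arrays scaled to a common median, that split was 232 positive and 517 negative. The responses themselves were large in both genotypes. In B10 kidneys 2814 genes passed (19.6%) and in TLR4 null kidneys 3088 (21.6%). Of these, 1935 passed in both, which is 68.8% of the B10 genes and 62.7% of the TLR4 null genes, and 1931 of the 1935 had the same direction. The 2 responses come from different mice and correlated at r = 0.726 across all genes and at 0.920 across the 4735 genes (33.1%) that passed for the mean of both responses. The second value is for genes chosen by the mean of the same 2 responses, which favours genes whose responses agree. It is therefore no measure of closer agreement. Both are correlations across genes, which are not independent replicates.

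**Figure D1:**
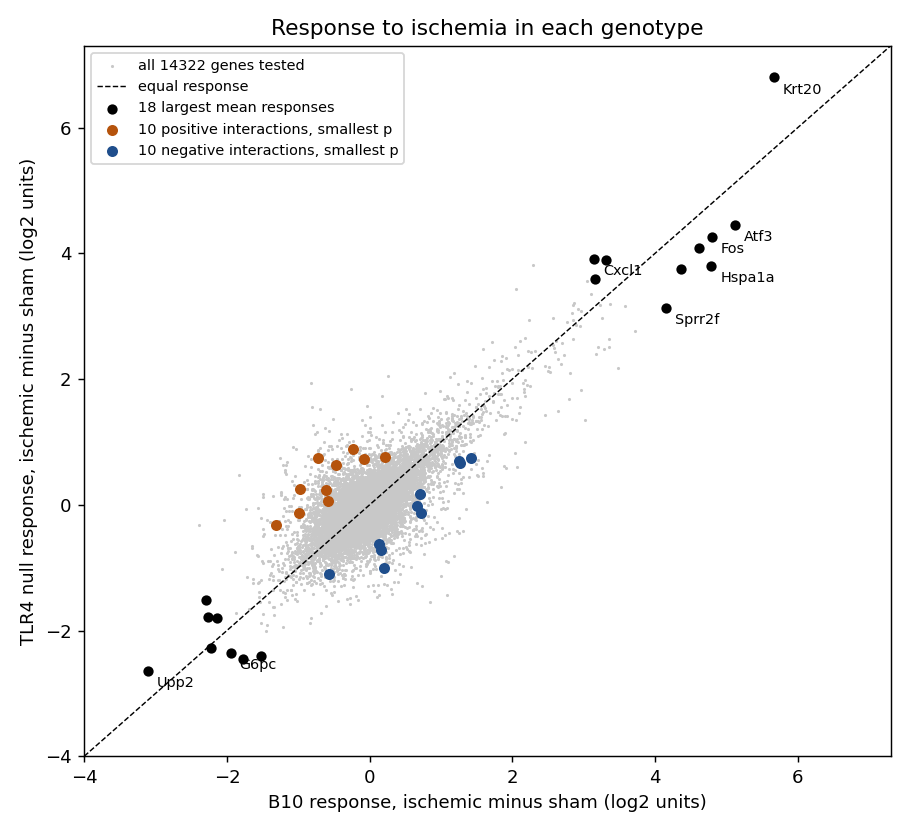
Ischemic minus sham difference (log2) of each of 14322 genes in B10 kidneys on the x axis and in TLR4 null kidneys on the y axis, 3 arrays a group, with the line of equal response dashed. Black points are the 18 largest mean responses, orange and blue points the 10 positive and 10 negative interactions of smallest p, and no gene passed for a difference between the axes.

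The precision of the design limits what a count of 0 says. The standard error of the interaction had a median of 0.24 log2 units, with a 10th percentile of 0.14 and a 90th percentile of 0.52. For 71.3% of genes the 95% confidence interval lay wholly within 1 log2 unit of 0 in either direction. In simulated data with the spread of these arrays, limma recovered 5.8% of interactions of 0.5, 46.4% of interactions of 1 and 79.0% of interactions of 2 log2 units among 14322 genes. A p that misses the threshold therefore does not show that the responses were equal.

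The genes with the largest responses were those of early injury, and they moved far in both genotypes. In this balanced design the estimated mean of both responses does not bear on the estimate of their difference. Both p-values use the same estimate of spread, so genes chosen by the p of the mean are not chosen free of the interaction p. An unadjusted interaction p under 0.05 was reached by 8.66% of the 4735 genes that passed for the mean. Among the 9587 that did not pass, 5.25% reached it. The part of that choice in the shares below was not tested. Of 341 genes that rose at least 2-fold in the mean response, the median interaction was 0.00, with 19 positive and 22 negative at an unadjusted p under 0.05 (12.02% in all). Of 121 genes that fell at least 2-fold, the median was 0.01, with 6 positive and 8 negative (11.6%). Together these are 462 genes, and for 263 of them the interval of the interaction lay within 1 log2 unit of 0. Krt20, a keratin of simple epithelia that marks injured tubules, led the rises. Its signals were 78.9, 66.0 and 63.7 in B10 sham, 4527, 3161 and 5365 in B10 ischemic, 44.4, 2.03 and 57.9 in TLR4 null sham and 5511, 5908 and 3102 in TLR4 null ischemic kidneys. The ischemic groups overlapped fully. Krt20 rose by 5.66 ± 0.40 log2 units (SE, n = 3 a group) in B10 and by 6.80 ± 0.40 in TLR4 null kidneys, and its interaction was 1.14, 95% interval -0.07 to 2.35 (limma, adjusted p = 0.793). Lcn2, which encodes the injury marker NGAL, rose by 2.56 and 2.98, with an interaction of 0.41 from -0.34 to 1.16. Havcr1, which encodes the tubular injury marker KIM-1, had low signals and an interaction of 0.34 from -1.26 to 1.94. Among the largest falls, Slc16a9, of the monocarboxylate transporter family, fell by 2.22 in B10 kidneys and fell by 2.28 in TLR4 null kidneys, with an interaction of -0.06 from -0.59 to 0.48. Upp2, a uridine phosphorylase, fell by 3.11 and 2.64, with an interaction of 0.47 from -0.18 to 1.11. For 3 other leading falls the intervals left out 0, but none passed after adjustment (limma, adjusted p = 0.703 to 0.768). Clec2d, a C-type lectin ligand of natural killer receptors, fell by 1.78 and 2.46, with an interaction of -0.68 from -1.24 to -0.11, and Apela, a peptide ligand of the apelin receptor, fell by 2.27 and 1.78, with 0.49 from 0.03 to 0.95. G6pc, which releases glucose from its phosphate in gluconeogenesis, fell by 1.95 and 2.35, with -0.40 from -0.79 to -0.02.

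Among the receptor complex and adaptors, 18 of 22 listed genes were tested and none passed. The median interaction of the list was -0.11, against 0.01 over all genes, with 1 gene positive and 1 negative at an unadjusted p under 0.05. Myd88, the adaptor of the MyD88 branch, had signals of 293 to 361 in B10 sham, 377 to 429 in B10 ischemic, 286 to 325 in TLR4 null sham and 318 to 431 in TLR4 null ischemic kidneys. Its ischemic groups overlapped, and its interaction was -0.01 from -0.39 to 0.37. Ticam1, which encodes TRIF, was at 0.10 from -0.43 to 0.63. Cd14, the co-receptor that hands lipopolysaccharide on, rose by 0.91 in B10 and by 0.79 in TLR4 null kidneys, and its interaction was -0.12 from -0.60 to 0.36. Ly96, which encodes MD-2, was at 0.21 from -0.40 to 0.81. Tlr2, the sister receptor for bacterial lipoproteins, was at -0.09 from -0.90 to 0.71. The 2 genes at an unadjusted p under 0.05 were Irak1, a kinase that MyD88 recruits, at -0.98 ± 0.36, and Map3k7, the kinase TAK1, at 0.34 ± 0.15. The Irak1 value came from a probe set of the _x_at kind, 2 of its 3 other probe sets had the opposite sign, and it was 0.26 without such probe sets. Of the 4 other tested probe sets of Map3k7, 2 had the sign given here.

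Proposed endogenous ligands of TLR4 had a lower median. Of 15 tested of 18 listed, 13 had a negative interaction (over all genes 48.7% were negative and 51.3% positive) and the median was -0.36 (-0.22 without TLR4 null sham replicate 1), but 0 reached an unadjusted p under 0.05. Without TLR4 null ischemic replicate 3 there were 5, all negative, with a median of -0.45 (over all genes 9.71% then reached that level and 5.11% did so with a negative sign), and without any other single array there were 0 to 2. Several of these ligands are heat shock proteins, described further on. The matrix members were Bgn, the proteoglycan biglycan, at -0.40 from -0.85 to 0.06, and Fn1, fibronectin, at -0.38 from -0.82 to 0.05. S100a8 and S100a9, alarmins of neutrophils, were at -0.27 and -0.43. Hmgb1 was not analysed here.

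Of the chemokines, 7 of 13 tested rose in B10 (9.17% of all genes did) and 6 in TLR4 null kidneys (9.86%), and of the cytokines and growth factors 7 and 6 of 13 did, while no interaction passed. Il6, the main inflammatory interleukin of the acute phase, had signals of 100.3, 33.4 and 68.7 in B10 sham, 655, 1110 and 525 in B10 ischemic, 54.6, 31.0 and 34.0 in TLR4 null sham and 256, 737 and 356 in TLR4 null ischemic kidneys. Its 2 ischemic groups overlapped. Il6 rose by 3.26 in B10 and by 2.97 in TLR4 null kidneys, and its interaction was -0.28 from -1.40 to 0.83 (limma, adjusted p = 0.956). Cxcl1, a chemokine that draws neutrophils, had signals of 483, 271 and 279 in B10 sham, 3259, 3420 and 2592 in B10 ischemic, 123, 157 and 252 in TLR4 null sham and 2444, 3885 and 2232 in TLR4 null ischemic kidneys. The ischemic groups overlapped, while each TLR4 null sham array read lower than each B10 sham array. Cxcl1 thus rose by 3.15 and 3.91, with an interaction of 0.76 from -0.01 to 1.53, which was 0.34 as the mean of its 3 probe sets. Cxcl2, the related neutrophil chemokine, rose by 2.96 and 3.09, and its interaction was 0.13 from -0.55 to 0.81. Ccl2, which draws monocytes, rose by 0.73 and 1.06, with 0.33 from -0.34 to 1.00. Cxcl10, a chemokine of the interferon response, rose by 1.10 and 1.11, with 0.01 from -0.83 to 0.86. Over the list of chemokines, 9 of 13 tested members were positive and the median was 0.13. The only chemokine at an unadjusted p under 0.05 was Cx3cl1, the membrane-bound fractalkine, at -0.36 ± 0.15. Its 2 other tested probe sets had the opposite sign, at 0.33 and 0.67. Over 13 tested cytokines and growth factors the median was -0.06, and 2 reached an unadjusted p under 0.05, both negative: Il33, an alarmin of the interleukin-1 family, at -0.54 ± 0.17 and Csf1, the macrophage growth factor, at -0.51 ± 0.21. Of the 3 other tested probe sets of Csf1, 1 had that sign. Il33 rose by 0.79 in B10 kidneys and was 0.25 higher in TLR4 null ischemic than sham kidneys (limma, adjusted p = 0.000302 and 0.18, with 0.637 for the interaction). Tnf did not pass the filter on low signal.

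NF-kB feedback and target genes showed no common direction, with 8 positive and 7 negative of 15 tested and a median of 0.15. Nfkbia, the inhibitor IkB-alpha that NF-kB itself induces, rose by 0.40 in B10 and by 0.55 in TLR4 null kidneys, and its interaction was 0.15 from -0.17 to 0.47. Its 4 other tested probe sets were positive too, at 0.04, 0.17, 0.28 and 0.78. The last, of lowest mean signal, had an unadjusted p of 0.00146 (limma on every probe set, adjusted p = 0.466). Nfkbiz, an atypical IkB that helps to induce Il6, rose by 2.18 and 1.99, with -0.20 from -0.57 to 0.17. Tnfaip3, the ubiquitin editor A20 that ends NF-kB signalling, rose by 0.83 and 1.38, with 0.55 from -0.08 to 1.17. Nfkbib was the only member of this list at an unadjusted p under 0.05, at 0.60 ± 0.21, and its 1 other tested probe set had the opposite sign. Among endothelial genes, Icam1, the adhesion molecule that holds leukocytes, had signals of 358, 364 and 313 in B10 sham, 779, 908 and 760 in B10 ischemic, 309, 346 and 332 in TLR4 null sham and 674, 680 and 569 in TLR4 null ischemic kidneys. Every TLR4 null ischemic array read lower than every B10 ischemic array, while the sham groups overlapped. Icam1 rose by 1.21 and 0.93, and its interaction of -0.28 had an interval of -0.61 to 0.05 (limma, adjusted p = 0.831). Vcam1, Sele and Selp, adhesion molecules of activated endothelium, were at -0.28, 0.25 and 0.19. Socs3, the feedback inhibitor of interleukin-6 signalling, rose by 2.53 and 2.11, with -0.42 from -1.16 to 0.31. In all, 26 of 27 genes singled out for their place in TLR4 signalling or renal injury were tested, each by its probe set of highest mean. By that probe set 0 passed and 0 reached an unadjusted p under 0.05. For 12 of the 26 the interval lay within 1 log2 unit of 0.

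**Figure D2:**
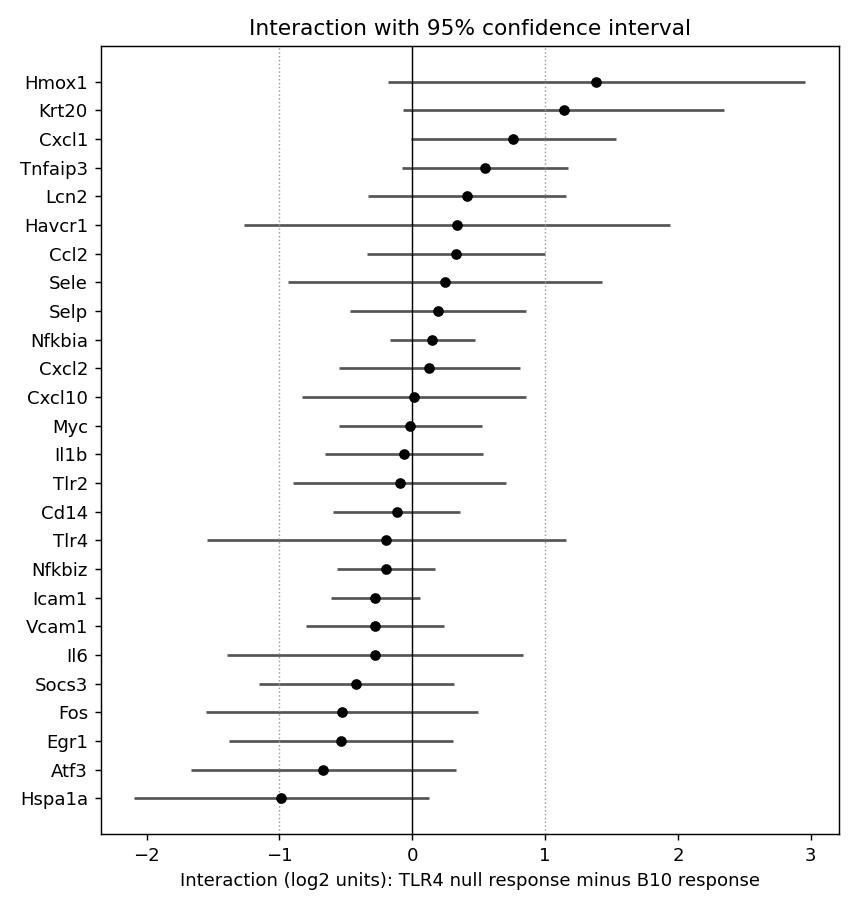
Interaction (log2, x axis) of the 26 tested genes singled out for TLR4 signalling and renal injury, points with 95% confidence intervals from limma, 3 arrays a group. All 26 intervals include 0, from Hmox1 at 1.39 to Hspa1a at -0.99.

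Interferon-stimulated genes, antigen presentation and complement had medians below that of all genes, without any gene that passed. In the list of interferon-stimulated genes 14 of 16 tested members were negative and the median was -0.31. Without B10 ischemic replicate 3 the median was -0.06, without TLR4 null sham replicate 1 it was -0.12, and without TLR4 null ischemic replicate 1 it was -0.16, while without TLR4 null ischemic replicate 3 it was -0.47. Oasl2, an interferon-induced antiviral gene, was the only one at an unadjusted p under 0.05, at -0.67 ± 0.28. There were 3 such genes without B10 ischemic replicate 2, 4 without TLR4 null ischemic replicate 3 and 0 without B10 ischemic replicate 3, B10 sham replicate 3 or TLR4 null ischemic replicate 1. The antigen presentation list had 12 negative of 13 tested, a median of -0.27 (-0.13 without TLR4 null ischemic replicate 2) and 3 at an unadjusted p under 0.05 (3.22% of all genes reached it with a negative sign). These were B2m, the light chain of class I molecules, at -0.40 ± 0.15, and the class II chains H2-Eb1 at -0.38 ± 0.15 and H2-Ab1 at -0.37 ± 0.16. The other tested B2m probe set, of mean signal 5339 against 5393, was at -0.13. That count of 3 was 1 without B10 ischemic replicate 3, B10 sham replicate 2, TLR4 null sham replicate 1 or TLR4 null sham replicate 3, and 2 without B10 ischemic replicate 2 or TLR4 null ischemic replicate 2. The complement list had 9 negative of 11 tested, a median of -0.26 and 3 at that level, which stayed at 2 or 3 without any one array. C1s1, a protease of the classical pathway, was at -0.70 ± 0.22, Serping1, the C1 inhibitor, at -0.47 ± 0.16, and C1qa, a chain of C1q, at -0.44 ± 0.18. All 3 fell in TLR4 null kidneys, by 0.71, 0.57 and 0.66, and none of them passed in B10 kidneys. C3 was not analysed here. C1q and the class II genes are also products of macrophages. The 11 tested macrophage markers had a median interaction of 0.09 with 0 at an unadjusted p under 0.05, and their mean log2 level ran from 7.36 to 7.61 in TLR4 null ischemic and from 7.58 to 7.81 in B10 ischemic kidneys. In sham kidneys it ran from 7.21 to 7.42 in TLR4 null and from 7.56 to 7.72 in B10 mice, so the lower level was there without ischemia too. In a whole kidney, fewer cells of a type and less RNA per cell cannot be told apart.

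The 20 genes with the smallest p for the interaction, 10 in each direction, were picked by that p and are given as a description. Apoc3, an apolipoprotein of triglyceride-rich particles, had the smallest of all. Its signals were 926, 853 and 857 in B10 sham, 321, 363 and 353 in B10 ischemic, 456, 532 and 598 in TLR4 null sham and 411, 470 and 382 in TLR4 null ischemic kidneys. The sham groups were far apart, the ischemic groups close but not overlapping. Apoc3 fell by 1.31 in B10 kidneys and was 0.32 lower in TLR4 null ischemic than sham kidneys, which did not pass, and its interaction was 0.99 ± 0.16 (SE, n = 3 a group; limma, unadjusted p = 1.95e-05, adjusted p = 0.244). Prepl, a peptidase of the prolyl oligopeptidase family, had signals of 407, 441 and 480 in B10 sham, 224, 226 and 205 in B10 ischemic, 398, 300 and 379 in TLR4 null sham and 405, 558 and 348 in TLR4 null ischemic kidneys. It fell by 0.97 in B10 kidneys, where the groups did not overlap, while those of the TLR4 null mice did. The interaction of Prepl was 1.23 ± 0.22. Rpl27a, a protein of the large ribosomal subunit, had signals of 1039, 1078 and 1394 in B10 sham, 717, 691 and 688 in B10 ischemic, 795, 659 and 834 in TLR4 null sham and 1497, 1660 and 840 in TLR4 null ischemic kidneys. It fell by 0.72 in B10 and rose by 0.74 in TLR4 null kidneys, where replicate 3 read only just above the highest sham array. The interaction of Rpl27a was 1.46 ± 0.27. Other ribosomal protein genes were looked up after this value was seen: of 41 tested, Rpl27a included, the median was -0.07 and Rpl27a was the only one at an unadjusted p under 0.05.

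Ube2n, an enzyme that builds the signalling ubiquitin chains downstream of TRAF6, had signals of 1078, 911 and 1058 in B10 sham, 1045, 985 and 854 in B10 ischemic, 681, 797 and 758 in TLR4 null sham and 1323, 1358 and 1065 in TLR4 null ischemic kidneys. Only the TLR4 null groups stood apart. Ube2n rose by 0.73 in TLR4 null kidneys and its interaction was 0.81 ± 0.16 (limma, adjusted p = 0.292). Irf5, a transcription factor activated downstream of MyD88, had signals of 165, 166 and 235 in B10 sham, 127, 111 and 155 in B10 ischemic, 132, 124 and 135 in TLR4 null sham and 230, 222 and 182 in TLR4 null ischemic kidneys. Every B10 ischemic array read below every B10 sham array, and every TLR4 null ischemic array above every TLR4 null sham array. Irf5 rose by 0.63 in TLR4 null kidneys, was 0.47 lower in B10 ischemic than sham kidneys, which did not pass, and had an interaction of 1.10 ± 0.24 (limma, adjusted p = 0.321). Trp53inp1, a stress protein induced by p53, fell by 0.99 in B10 kidneys, with an interaction of 0.87 ± 0.18. Eif4e, the cap-binding translation factor, rose by 0.76 in TLR4 null kidneys, with 0.53 ± 0.12. Eml5, a microtubule-associated protein, was at 0.84 ± 0.18. Mapre2, a protein of microtubule ends, was at 0.64 ± 0.12, but none of its 4 other tested probe sets had that sign. Sphk2, a sphingosine kinase, was at 1.12 ± 0.23, and its 1 other tested probe set had the opposite sign.

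On the negative side, Igfbp3, a carrier of insulin-like growth factors, had signals of 1390, 1523 and 1426 in B10 sham, 1281, 1894 and 1723 in B10 ischemic, 2013, 1987 and 1825 in TLR4 null sham and 1130, 1347 and 1049 in TLR4 null ischemic kidneys. The B10 groups overlapped and the TLR4 null groups did not. Igfbp3 fell by 0.72 in TLR4 null kidneys and its interaction was -0.88 ± 0.18 (limma, adjusted p = 0.315). Slc25a20, the mitochondrial carrier that brings acylcarnitines in for oxidation, had signals of 2195, 2121 and 2198 in B10 sham, 1394, 1446 and 1540 in B10 ischemic, 2813, 3304 and 3021 in TLR4 null sham and 1399, 1431 and 1398 in TLR4 null ischemic kidneys. The ischemic groups overlapped and the sham groups did not. Slc25a20 fell by 0.57 in B10 and by 1.10 in TLR4 null kidneys, with an interaction of -0.53 ± 0.11 (limma, adjusted p = 0.315). Dnase2a, the acid nuclease of lysosomes, fell by 1.00 in TLR4 null kidneys and was at -1.20 ± 0.27. Its only tested probe set was of the _x_at kind. Dusp6, a phosphatase that turns off ERK, rose by 0.70 in B10 kidneys and was at -0.54 ± 0.12. Ube2d2a, a ubiquitin-conjugating enzyme, rose by 0.67 in B10 kidneys and was at -0.69 ± 0.15. Pcbp4, an RNA-binding protein, rose by 0.71 in B10 kidneys and was at -0.85 ± 0.19 by a probe set of the _x_at kind, which can bind several transcripts, but at -0.09 without such probe sets. Zbtb11, a zinc finger protein, rose in both genotypes, by 1.27 and 0.67, and was at -0.60 ± 0.14. The long non-coding RNA Chaserr rose by 1.25 and 0.70 and was at -0.55 ± 0.12, with 1 other tested probe set of the opposite sign. Zfp503, a zinc finger protein, fell by 0.63 in TLR4 null kidneys and was at -0.76 ± 0.18. Hsp90aa1, the inducible HSP90 chaperone, was at -0.69 ± 0.16. Of these 20 genes, 15 had other tested probe sets, and for 12 of the 15 the mean over probe sets was over 1.5 times smaller or of opposite sign. Among them were Prepl at 0.62, Irf5 at 0.58, Ube2n at 0.46, Slc25a20 at -0.32, Eml5 at 0.24, Hsp90aa1 at -0.24, Ube2d2a at -0.21, Eif4e at 0.20 and Chaserr at -0.09. For Hsp90aa1 the probe sets of high signal were at -0.69, -0.53 and -0.64. Those of mean signal 50.5 and 33.6 were at 1.05 and -0.38, and the mean gives them equal weight.

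**Figure D3:**
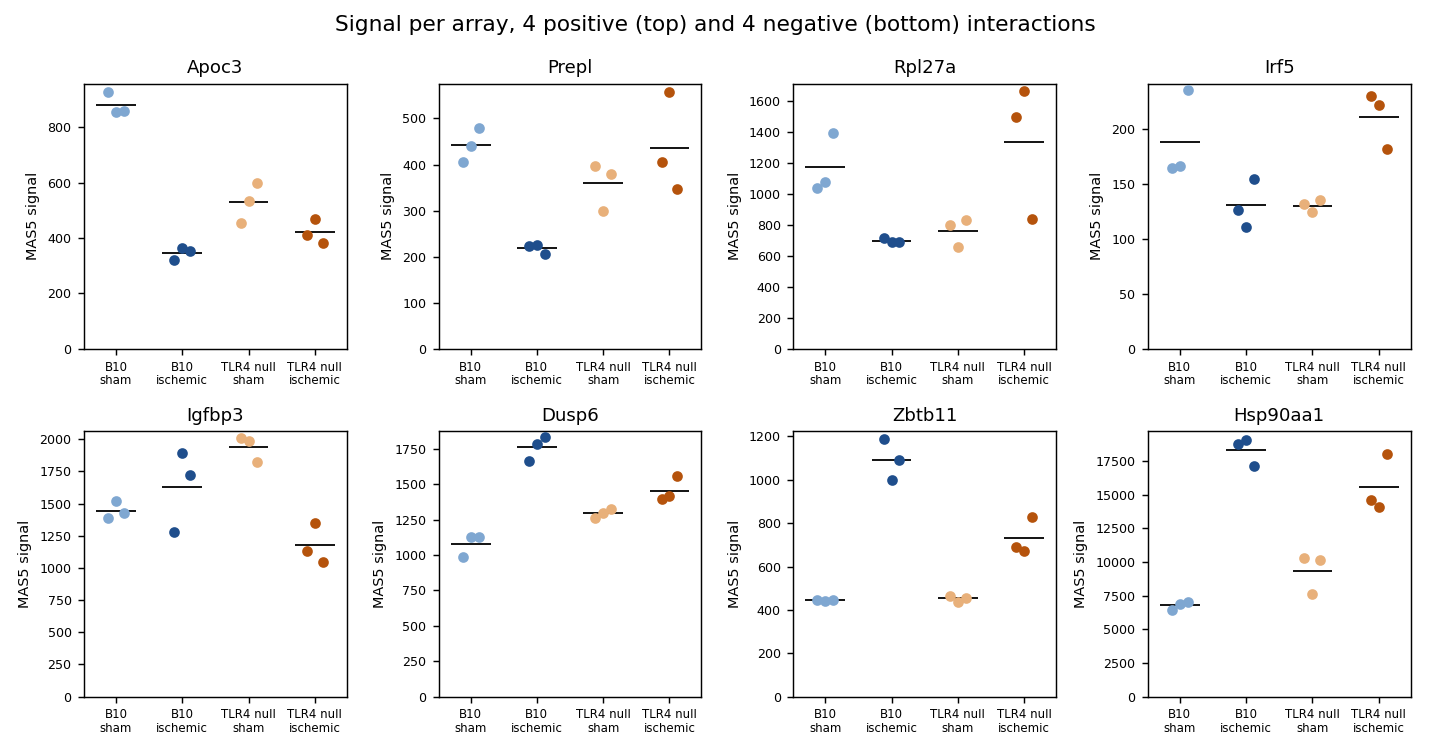
MAS5 signal (y axis, from 0) on each of the 12 arrays for 4 positive (top) and 4 negative (bottom) interactions among the genes with the smallest p, by group, with points for arrays and a line for the group mean. Rpl27a falls in B10 and rises in TLR4 null kidneys, and the Apoc3 sham groups lie further apart than its ischemic groups.

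Heat shock genes leaned to the negative side. Of 17 tested, 15 were negative, the median was -0.54 (-0.25 without TLR4 null ischemic replicate 2 and -0.65 without replicate 3), and 6 reached an unadjusted p under 0.05, all negative, against 3.22% of all genes. With each array left out in turn the count of positive ones stayed at 0, and the count of negative ones ran from 3 (without B10 ischemic replicate 1, B10 sham replicate 2, TLR4 null ischemic replicate 2 or TLR4 null sham replicate 1) to 13 (without TLR4 null ischemic replicate 3). Most of these chaperones rose in both genotypes, 15 of 17 in B10 (9.17% of all genes rose) and 13 of 17 in TLR4 null kidneys (9.86%). Hsph1, the HSP110 chaperone, had signals of 1472, 1527 and 1663 in B10 sham, 13763, 11749 and 11245 in B10 ischemic, 2468, 1717 and 1989 in TLR4 null sham and 8218, 3849 and 12188 in TLR4 null ischemic kidneys. TLR4 null ischemic replicate 3 lay among the B10 ischemic arrays and the other two lay below them. Hsph1 rose by 2.96 and 1.83, with an interaction of -1.13 from -1.97 to -0.30 (limma, adjusted p = 0.651). Dnajb1, the HSP40 partner of HSP70, had signals of 11122, 9917 and 8184 in B10 ischemic and 4824, 1498 and 9881 in TLR4 null ischemic kidneys, against 793 to 1094 in all sham kidneys. Its interaction was -1.31 from -2.59 to -0.02. Hspa1a, the stress-induced HSP70, had signals of 11640, 12960 and 11894 in B10 ischemic and 6758, 2710 and 12724 in TLR4 null ischemic kidneys, and an interaction of -0.99 from -2.09 to 0.12. The same order of the 3 TLR4 null ischemic arrays, replicate 3 highest and replicate 2 lowest, held for Hsph1, Dnajb1, Hspa1a and for Hspb1, the small heat shock protein HSP27, which read 5995, 2684 and 12199. The 18S control ran in the reverse order on these 3 arrays (2287, 2646 and 1410), and the actin 3′ over 5′ signal ratio was 1.73, 1.83 and 2.01 there against 1.88 to 1.99 on the B10 ischemic arrays. The part of either in these values was not tested. Bag3, a co-chaperone of HSP70, was at -1.10 from -2.13 to -0.08, Hspa4l at -0.68 and Chordc1, an HSP90 partner, at -0.54. Cryab, the alpha-B crystallin chaperone, rose by 1.83 and 1.90 and was at 0.07 from -0.38 to 0.52.

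Promoters of 4 of these genes are shown, each as the 250 bases before the most upstream annotated start, 5′ to 3′ on the gene's strand (RefSeq, GRCm38.p6). The 4 took the same order on the TLR4 null ischemic arrays, but that order was not particular to them. Of 17 tested heat shock genes, replicate 3 was the highest of its group for 14 and replicate 2 the lowest for 16. The share of all genes in that order was not counted. Median signals of these arrays ran in the same order, at 67.6, 63.0 and 74.3 for replicates 1, 2 and 3. Heat shock factor 1 binds inverted repeats of a short element, and capitals mark matches to GAANNTTC or TTCNNGAA, each of which reads the same on both strands. Such matches can overlap.
Hsph1, chr5:149636337-149636586, minus strand: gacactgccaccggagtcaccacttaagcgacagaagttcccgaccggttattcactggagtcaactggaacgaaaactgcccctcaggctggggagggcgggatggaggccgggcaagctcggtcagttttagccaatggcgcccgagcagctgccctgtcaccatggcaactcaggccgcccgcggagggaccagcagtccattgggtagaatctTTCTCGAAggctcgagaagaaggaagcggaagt
Hspb1, chr5:135887669-135887918, plus strand: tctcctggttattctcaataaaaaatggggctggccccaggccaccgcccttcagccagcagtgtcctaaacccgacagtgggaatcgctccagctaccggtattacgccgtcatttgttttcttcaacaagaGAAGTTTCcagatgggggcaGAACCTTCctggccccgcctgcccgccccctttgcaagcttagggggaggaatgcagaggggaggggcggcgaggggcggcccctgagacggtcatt
Hspa1a, chr17:34972157-34972406, minus strand: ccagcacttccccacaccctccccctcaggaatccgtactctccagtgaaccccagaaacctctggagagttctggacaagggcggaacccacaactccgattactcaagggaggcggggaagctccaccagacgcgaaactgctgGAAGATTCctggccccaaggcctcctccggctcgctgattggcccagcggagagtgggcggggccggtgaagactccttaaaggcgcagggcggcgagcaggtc
Dnajb1, chr8:83607925-83608174, plus strand: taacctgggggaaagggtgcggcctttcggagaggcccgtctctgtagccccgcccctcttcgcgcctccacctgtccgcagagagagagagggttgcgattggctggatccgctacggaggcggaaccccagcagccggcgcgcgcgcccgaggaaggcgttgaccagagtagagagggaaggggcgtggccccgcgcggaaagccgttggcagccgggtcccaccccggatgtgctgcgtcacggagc
The match lay 33 bases before the start in Hsph1 and 104 bases before it in Hspa1a, and Hspb1 had 2, at 117 and 97 bases. Of 17 heat shock genes tested, 14 had a promoter in the table and 7 of those held a match, against 13% of 27025 genes. Bag3 and Dnajb1, among the most negative interactions, held no match in this window, which says only that these letters are not there. Hsp90aa1, Hspa8 and Cryab were not analysed here for sequence.

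Immediate early genes, the transcription factors switched on within minutes of a stimulus, were mostly highest on the same array. TLR4 null ischemic replicate 3 was the highest of its group for 21 of 27 of them, against 14 of 17 heat shock genes. How often it was the highest over all genes was not counted. Of 27 tested, 20 were negative with a median of -0.19, and 1 positive and 2 negative genes reached an unadjusted p under 0.05 (3.16% and 3.22% of all genes). Without TLR4 null ischemic replicate 3 there were 2 and 9 (5.11% of all genes were then negative at that level). In B10 kidneys 23 of 27 rose (9.17% of all genes) and in TLR4 null kidneys 22 (9.86%). The mean log2 level of the list was 10.23, 10.25 and 10.22 on the B10 ischemic arrays and 9.67, 9.64 and 10.21 on the TLR4 null ischemic arrays. The heat shock list read 12.53, 12.44 and 12.40 on the B10 ischemic arrays and 12.01, 11.41 and 12.47 on the TLR4 null ischemic arrays, so on both lists replicate 3 read close to the B10 level. Jun, a subunit of AP-1, had signals of 10097, 9624 and 7833 in B10 ischemic and 4686, 2522 and 11180 in TLR4 null ischemic kidneys, against 664 to 837 in sham kidneys. The ischemic groups overlapped through replicate 3 alone. Jun rose by 3.71 and 2.76, with an interaction of -0.95 from -1.97 to 0.07 (limma, adjusted p = 0.793). Egr1, a zinc finger factor of the same early wave, read 8788, 8989 and 9271 in B10 ischemic and 2868, 3427 and 8458 in TLR4 null ischemic kidneys, which did not overlap, and its interaction was -0.53 from -1.38 to 0.31. Fos, the partner of Jun, was at -0.53 from -1.56 to 0.50, and Atf3, a stress factor of the ATF family, at -0.67 from -1.67 to 0.33. Egr2 at -1.01 ± 0.33 and Dusp1, a phosphatase of p38 and JNK, at -0.68 ± 0.25 were the 2 negative genes, and Csrnp1 at 1.52 ± 0.55 the positive one. Egr2 and Csrnp1 each had 1 other tested probe set, of the opposite sign. Members that went against the list on these arrays were Fosl1, a Fos family subunit, which read 1303, 1897 and 710 in TLR4 null ischemic kidneys, and Myc, which read 918, 1348 and 971. The interaction of Fosl1 was 0.58 from -0.19 to 1.35 and that of Myc -0.02 from -0.55 to 0.52.

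**Figure D4:**
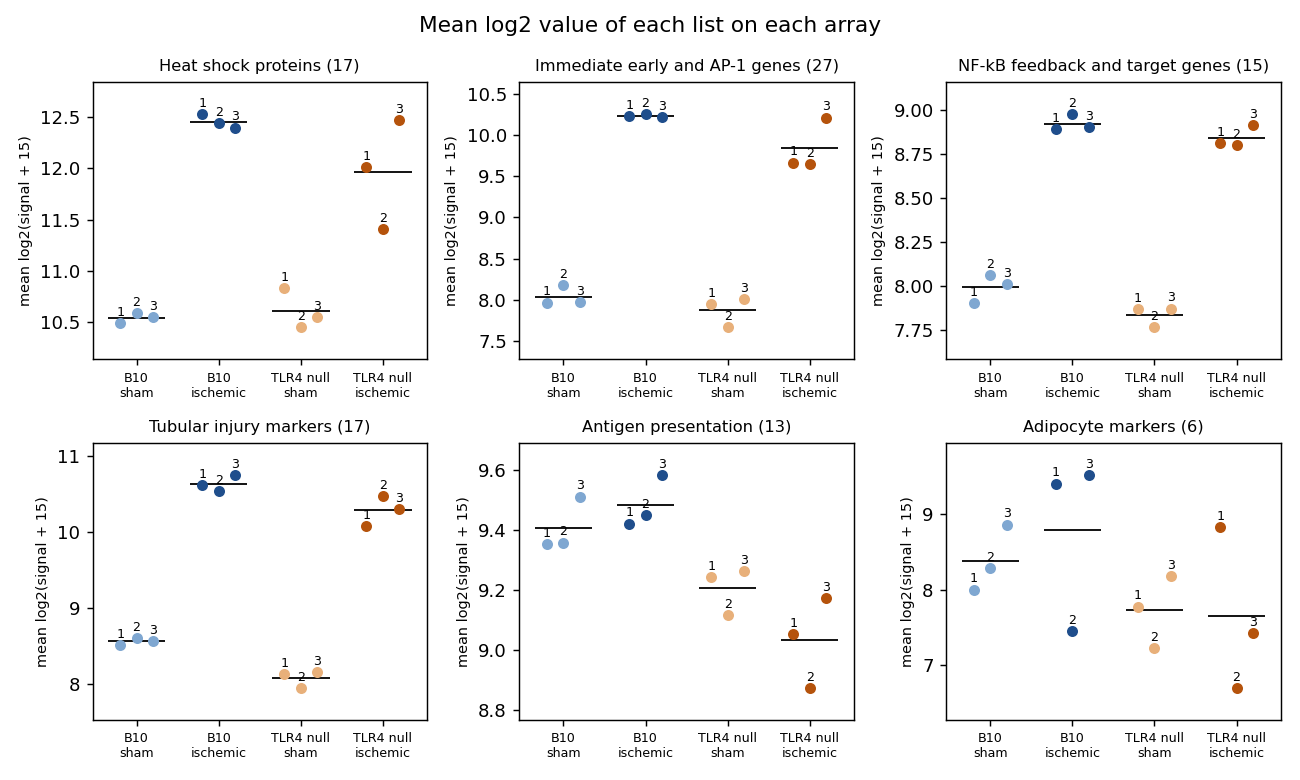
Mean log2(signal + 15) of the tested members of 6 gene lists on each of the 12 arrays, by group, with the replicate number at each point and a line for the group mean. On the heat shock list TLR4 null ischemic replicate 3 reads 12.47, level with the B10 ischemic arrays at 12.40 to 12.53, while the other TLR4 null ischemic arrays read 12.01 and 11.41.

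Without that array, TLR4 null ischemic replicate 3, 15 genes passed for the interaction (limma, adjusted p under 0.05, 0.105% of genes), 10 positive and 5 negative. It also had the lowest weight of the 12 when arrays were weighted by their residuals, but with all arrays kept and weighted no gene passed (limma, smallest adjusted p = 0.0622). The 15 were Rpl27a at 1.76 ± 0.17 (adjusted p = 0.00119), Smn1 at 2.29, 4932431P20Rik at 1.81, Gm6787 at 1.71, 1810014B01Rik at 1.64, Ackr4 at 1.47, Prepl at 1.37, Apoc3 at 1.06, Ube2n at 0.92 and Mapre2 at 0.73, and, on the negative side, Uspl1 at -1.53, Jun at -1.52, Nmrk1 at -1.34, Pcbp4 at -0.98 and Rragd at -0.84. Jun was the only member of any list among them. Smn1 encodes the SMN protein of snRNP assembly and Ackr4 is a scavenging chemokine receptor. Nmrk1 phosphorylates nicotinamide riboside on the way to NAD, and Rragd is a GTPase that ties mTORC1 to amino acids. With that array left out the TLR4 null ischemic group has 2 kidneys, and its choice followed from the values.

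**Figure D5:**
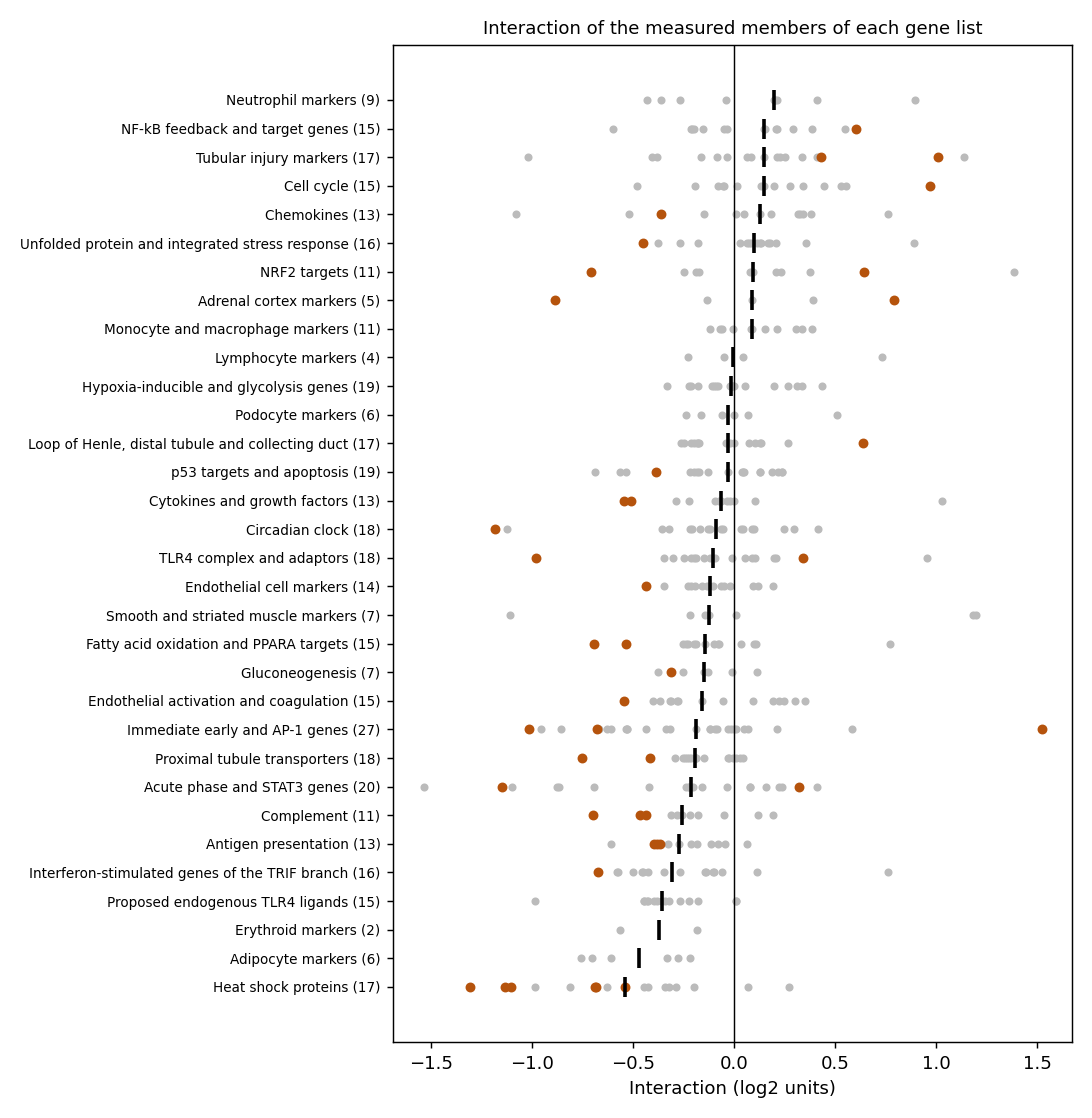
Interaction (log2, x axis) of the tested members of each gene list, grey points for genes, coloured points for genes at an unadjusted p under 0.05 and a black mark for the list median. The heat shock median lies at -0.54 (-0.25 without TLR4 null ischemic replicate 2), with 15 of its 17 genes to the left of 0.

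In fatty acid oxidation 11 of 15 tested genes fell in B10 and 12 in TLR4 null kidneys (10.5% and 11.7% of all genes fell), and the interaction had a median of -0.14 with 2 negative genes at an unadjusted p under 0.05. These were Slc25a20, above, and Ehhadh, the peroxisomal bifunctional enzyme, which fell by 0.50 in B10 and by 1.19 in TLR4 null kidneys, at -0.69 ± 0.18. In the gluconeogenesis list, 3 of 7 tested genes fell in B10 and 4 in TLR4 null kidneys, and the interaction had a median of -0.15 and 1 such gene, Pcx, the pyruvate carboxylase, at -0.31 ± 0.14. G6pc, the glucose-6-phosphatase, was not matched in that list but fell by 1.95 and 2.35 and was at -0.40 from -0.79 to -0.02. Among 18 proximal tubule transporters 4 fell and 1 rose in B10 and 6 fell in TLR4 null kidneys, and the median interaction was -0.19 with 15 negative, 2 of them at an unadjusted p under 0.05 (1 to 5 without each array in turn). These were Slc13a3, the dicarboxylate carrier, at -0.75 ± 0.19 and Slc6a19, a neutral amino acid carrier, at -0.42 ± 0.17. Hypoxia-inducible genes had a median of -0.02, which was 0.01 under quantile normalization, and 0 at that level.

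The unfolded protein response list had 12 of 16 positive and a median of 0.10, and Ppp1r15a, the GADD34 phosphatase subunit, was its only gene at an unadjusted p under 0.05, at -0.45 ± 0.17. The NRF2 list had a median of 0.09, with Nqo1, a quinone reductase, at 0.64 ± 0.17 and Osgin1 at -0.71 ± 0.27. Hmox1, the heme oxygenase, had signals of 3170, 2364 and 2492 in B10 ischemic and 6461, 11250 and 3108 in TLR4 null ischemic kidneys. Sham arrays of both genotypes held 1 high value each, 1493 and 1156 against 306 to 458 on the other 4. Hmox1 rose by 2.06 and 3.44, with an interaction of 1.39 from -0.19 to 2.96 (limma, adjusted p = 0.812). Without TLR4 null ischemic replicate 3 there were 3 positive NRF2 genes at an unadjusted p under 0.05 in place of 1. The same count of 3 came without B10 sham replicate 1, B10 sham replicate 2 or TLR4 null sham replicate 1. The p53 list had a median of -0.03 with 1 gene, negative, at an unadjusted p under 0.05, or -0.12 with 5 of 19 negative at that level without TLR4 null ischemic replicate 3 (5.11% of all genes were). Casp8, the initiator caspase of death receptors, was the 1 gene, at -0.38 ± 0.13. Among 17 tubular injury markers the median was 0.15 and 2 were positive at an unadjusted p under 0.05 (3.16% of all genes were). Krt8, a keratin of simple epithelia, had signals of 1989, 2055 and 2017 in B10 sham, 8347, 6994 and 7639 in B10 ischemic, 1749, 1765 and 1716 in TLR4 null sham and 8832, 9494 and 8390 in TLR4 null ischemic kidneys. Every TLR4 null ischemic array read above every B10 ischemic array. Krt8 rose by 1.91 and 2.34, with 0.43 from 0.19 to 0.67 (limma, adjusted p = 0.452). Sox9, a factor of regenerating tubules, was at 1.01 ± 0.46.

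No marker of other cells that a kidney sample can hold passed for the interaction. Neutrophil markers, 9 tested, had a median of 0.20, or -0.18 without TLR4 null ischemic replicate 3, and 0 at an unadjusted p under 0.05. Endothelial markers, 14 tested, had a median of -0.12, with Ehd3 at -0.44 ± 0.18 as the only one at that level. The other tested Ehd3 probe set was at -0.03. Adrenal cortex markers, 5 tested, had a median of 0.09 and 2 at that level, Cyp11b1, the last enzyme of corticosterone synthesis, at -0.89 ± 0.38 and Star, which brings cholesterol into mitochondria, at 0.79 ± 0.37. Adipocyte markers, 6 tested, were all negative with a median of -0.47 and 0 at that level. Their mean log2 level varied within groups, at 9.41, 7.45 and 9.52 on the B10 ischemic and 8.83, 6.70 and 7.42 on the TLR4 null ischemic arrays. Adipoq, adiponectin, ran from 201 to 1620 in B10 ischemic and from 34.8 to 801 in TLR4 null ischemic kidneys, and its interval of -3.16 to 1.95 shows how little these arrays say of fat genes. With the mean level of the adipocyte markers as a covariate, 0 genes passed for the interaction and 989 reached an unadjusted p under 0.05 (limma), and the part of fat in single genes was not tested.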

How the data were processed

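Expression was measured on 12 Affymetrix arrays, 1 kidney each. The deposited values are linear signal intensity per probe set. Per the submitters' processing notes, MAS5 made them; no version or scaling target was given in the sources used here. Trimmed means were equal on all arrays, and that scaling was kept. Values were taken as log2(signal + 15). Probe sets were kept where 3 or more arrays read above their own 40th percentile. Genes were named from the platform annotation where it gave 1 gene (34945 of 45101 probe sets; 932 had several and 9160 none, with 64 controls left out), 34741 of them matched to RefSeq's gene table, and the probe set of highest mean stood for its gene, which left 14322 genes. A difference of log2 values with the added 15 understates changes of genes with low signal.

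All 12 arrays entered 1 limma 3.58.1 fit in R 4.3.3 (lmFit, eBayes with a trend) with a mean per group, 8 residual degrees of freedom, two-sided tests and Benjamini-Hochberg adjustment over all genes. A gene passed at an adjusted p under 0.05. The genes, lists and tests were chosen with earlier results of these data known. Named were the 10 positive and 10 negative interactions with the smallest p, leading mean responses, 27 genes of TLR4 signalling and injury, and up to 2 members of each of 32 lists with the smallest p. Predicted or clone-named genes were skipped in the first 2 of these groups. List members beyond these, and the genes that passed without 1 array, were chosen after their values were seen. List medians and counts stand beside those over all genes, with no test of a list. The fit was tested on simulated data with 200 changed genes, where 3 of 88 calls were false. Promoters came from RefSeq's table. Alternatives were other scalings, pseudocounts of 1 and 60, filters, probe set rules, variance models, a block for the replicate number and leaving out each array. The adipocyte covariate was added after the data were seen. Python 3.11.15 with pandas 2.3.3, numpy 2.4.6 and scipy 1.17.1 made the tables, and matplotlib 3.10.9 the figures.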

Additional observations from a re-analysis of the deposited data

Results flagged for a closer look

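In 3 of the 117 named genes all ischemic arrays read below all sham arrays in B10 kidneys and above them in TLR4 null kidneys. All 3 were named for a small interaction p, which favours such a pattern, and its share over all genes was not counted. The responses of Irf5 in B10 kidneys and of Mki67 in either genotype did not pass, and none of the 3 passed for the interaction in limma after adjustment over all genes. Rpl27a had an interaction of 1.46 (adjusted p = 0.244). Irf5 had 1.10 (adjusted p = 0.321). Mki67, a marker of dividing cells, had 0.97 (adjusted p = 0.672), with signals of 153 to 188 in B10 sham, 128 to 140 in B10 ischemic, 6.82 to 18.1 in TLR4 null sham and 19.4 to 38.6 in TLR4 null ischemic kidneys, both TLR4 null groups near the added 15. On Mki67 the gap between genotypes was thus wider than that between sham and ischemic kidneys of either genotype.

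A control probe set outside the gene measurements also stood apart. The 3′ probe set for 18S ribosomal RNA had a mean signal of 2114 on the TLR4 null ischemic arrays, against 550 in B10 ischemic, 406 in TLR4 null sham and 390 in B10 sham kidneys. Groups of 3 arrays are too small for the outlier test.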

How the results depend on the processing

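No gene passed for the interaction under any alternative that kept all 12 arrays (limma; 742 to 1892 genes or probe sets at an unadjusted p under 0.05, with 0 after adjustment). Leaving out each array gave 0 to 15 calls, and 0 to 1 among list members (Jun), with the upper value only without TLR4 null ischemic replicate 3. The 26 tested of the 27 chosen genes gave 0 throughout. With every probe set tested, 4736 passed in B10, 5072 in TLR4 null and 8278 for the mean response, among 30326 probe sets in place of 14322 genes. With median scaling 1788 passed in B10 (1239 higher, 549 lower, against 1313 and 1501) and 2014 in TLR4 null kidneys; the cause was not tested. With the replicate number as a block 0 genes passed for the interaction and 903 reached an unadjusted p under 0.05, and 2723, 2923 and 4617 passed for the B10, TLR4 null and mean responses. Deviations of arrays with the same number correlated at -0.06 to 0.10 over 18 pairs, so the numbers were not taken to pair kidneys. Of 3028 values of named genes over the alternatives, 2950 stayed within 1 standard error of the reported value, 72 moved, 6 came to pass and 0 called values reversed. The sign differed from the reported one for 55 values, and a value could change sign and still count as having stayed. Among the 20 genes of smallest p, Mapre2 turned to -0.12 with the mean of its probe sets and Sphk2 to -0.11 with quantile normalization. The probe set standing for a gene was chosen again after that normalization. Without it, the other Sphk2 probe set, of mean signal 158.7 against 163.8, read -0.09. The part of the normalization itself in the Sphk2 change was not tested. The 3 arrays a group limit precision, and genes with signals near the added 15 have folds that are understated.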
